A study of Mus musculus with 4 samples.

Results

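The mitochondrial respiratory chain was examined here through the nuclear genes of its 5 complexes on 4 Affymetrix whole-transcript arrays. A gene was a member if the platform annotation gave its probe set exactly 1 gene symbol that begins with Ndufa, Ndufb, Ndufc, Ndufs or Ndufv followed by a number, is Sdha, Sdhb, Sdhc or Sdhd, or begins with Uqcr, Cox4 to Cox8 or Atp5. Assembly factors with Ndufaf symbols and 2 symbols with a -ps suffix were left out. This gave 83 members of 30145 named genes: 35 of complex I, 4 of complex II, 8 of complex III, 18 of complex IV and 18 of complex V. Where a gene had several probe sets, the brightest was used. Genes of these complexes without such a probe set were not members. Some of them, such as Cyc1 and mt-Co1, are given apart below as subunits outside the symbol rule.

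LK cells, which lack lineage markers and carry c-Kit, were taken from NOD (non-obese diabetic) mice; blood stem cells and progenitors are enriched among them. All samples spent 4 h at 37 °C in StemSpan medium, 2 with DMSO vehicle and 2 with 10 µM dmPGE2 plus 10 µM dexamethasone (called combination below). The compound dmPGE2 is a stabilised form of prostaglandin E2, and dexamethasone is a synthetic glucocorticoid. Samples are numbered 1 and 2 in each group and called biological duplicates, but the sources used here do not give the animals behind each number, their age or any pooling, so p-values measure only the spread between these samples. No array carried either drug alone. Signals are log2 values after RMA, and differences are combination minus vehicle unless stated otherwise.

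Complex I takes electrons from NADH, and complex II, which is also the succinate dehydrogenase of the citric acid cycle, takes them from succinate. Complex III passes them from ubiquinone to cytochrome c and complex IV from cytochrome c to oxygen, while complex V, the ATP synthase, uses the resulting proton gradient. Most subunits are encoded in the nucleus and the rest by mitochondrial DNA. Quiescent stem cells are known for low mitochondrial respiration, which increases as progenitors divide and differentiate.

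Nuclear genes of the chain are known to carry binding sites of NRF-1 and of ETS factors such as GABP in their promoters, so promoter windows of some members are shown first. The RefSeq promoter table (GRCm38.p6) held windows for 67 of the 83 members. In the 250 bases before the start, the NRF-1 palindrome stood in 10 of these 67 members and in 15.3% of their 72 windows, against 3.74% of all 32851 windows. The ETS letters CCGGAAG stood in 12 members and in 16.7% of member windows, against 6.91% of all windows. The YY1 letters AAGATGGCG were found in 2 members (2.78% of member windows, 0.606% of all), and the cAMP response element TGACGTCA in 3, Ndufa10, Ndufb2 and Uqcrfs1 (4.17% and 1.55%). The palindromic glucocorticoid response element was found in 0 members and 0.00913% of all windows. Member windows also held more CpG dinucleotides, a median of 14 against 6 in all windows. The part of this in the motif shares was not tested. Both strands were searched, a match describes letters only, and capitals mark matches. Ndufs7 is shown as the member with the lowest difference, with no match to any of these letters, and the others as the member of each complex with the smallest limma p among those with an NRF-1 or ETS match; this choice was made after the values were seen.
Ndufs7, chr10:80249199-80249448, plus strand: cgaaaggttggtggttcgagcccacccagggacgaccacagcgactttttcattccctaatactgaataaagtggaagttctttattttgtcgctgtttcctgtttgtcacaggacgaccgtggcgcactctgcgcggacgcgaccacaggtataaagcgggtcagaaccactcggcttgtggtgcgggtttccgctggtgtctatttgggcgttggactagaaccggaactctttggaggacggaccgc
Ndufs5, chr4:123718187-123718436, minus strand: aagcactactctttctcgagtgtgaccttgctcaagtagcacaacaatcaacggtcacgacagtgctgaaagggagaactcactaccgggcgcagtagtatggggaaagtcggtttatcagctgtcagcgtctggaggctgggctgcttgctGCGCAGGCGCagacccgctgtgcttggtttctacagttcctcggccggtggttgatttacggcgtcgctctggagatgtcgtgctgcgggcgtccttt
Sdha, chr13:74350241-74350490, minus strand: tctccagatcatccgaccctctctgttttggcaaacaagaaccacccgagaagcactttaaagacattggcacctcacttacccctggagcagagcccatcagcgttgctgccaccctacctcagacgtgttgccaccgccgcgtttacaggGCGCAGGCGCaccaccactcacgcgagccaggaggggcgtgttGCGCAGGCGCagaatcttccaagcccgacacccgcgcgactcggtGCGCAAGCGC
Uqcr11, chr10:80406822-80407071, minus strand: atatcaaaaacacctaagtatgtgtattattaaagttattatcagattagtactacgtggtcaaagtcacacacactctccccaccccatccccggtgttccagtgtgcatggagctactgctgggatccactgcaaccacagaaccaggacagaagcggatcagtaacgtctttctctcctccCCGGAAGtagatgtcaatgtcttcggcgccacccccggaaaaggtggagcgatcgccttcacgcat
Cox6b1, chr7:30626115-30626364, minus strand: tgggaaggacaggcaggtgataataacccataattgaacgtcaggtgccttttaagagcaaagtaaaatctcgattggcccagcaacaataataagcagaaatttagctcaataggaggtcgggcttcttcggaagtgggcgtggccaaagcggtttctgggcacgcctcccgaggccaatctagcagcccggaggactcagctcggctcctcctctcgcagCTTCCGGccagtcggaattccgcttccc
Atp5k, chr5:108434400-108434649, minus strand: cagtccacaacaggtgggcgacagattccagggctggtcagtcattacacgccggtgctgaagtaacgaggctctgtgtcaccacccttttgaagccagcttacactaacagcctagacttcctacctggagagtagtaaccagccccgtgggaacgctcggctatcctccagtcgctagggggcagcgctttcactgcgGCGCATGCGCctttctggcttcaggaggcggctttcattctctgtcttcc
The Sdha window held 3 NRF-1 matches, those of Ndufs5 and Atp5k held 1 each, that of Uqcr11 held 1 ETS match, and that of Cox6b1 held 1 ETS match on the reverse strand. The Ndufs7 window, with 20 CpG dinucleotides, had more than the median of 14 in member windows and of 6 in all windows.

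Array medians over all 65956 features lay between 4.36 and 4.44. Means of the 23 background probe sets were 3.07 to 3.16, and the highest single value, 5.55, is used as the upper end of the background range. Kit, the receptor used to select the cells, was at 10.18 and 10.32 with vehicle and 10.51 and 9.62 with the combination. All 5 measured T or NK cell markers and all 3 measured B cell markers lay at or below 5.55 on every array. Summed over 8 neutrophil genes, the log2 level was 16.50 on vehicle 1 and 16.56 on combination 1 against 14.28 on vehicle 2 and 14.69 on combination 2. The defining neutrophil surface marker Ly6g lay at 4.51 to 5.10, within the background range, and 2 of these 8 genes did so on all arrays. Summed over the 3 measured erythroid genes of 6 listed, the level was 11.91 on vehicle 1 and 10.98 to 11.25 on the other 3 arrays. The 3 genes did not move together: Klf1 and Epor were highest on vehicle 1, at 11.53 and 9.22, while Alas2 was at 8.16 there against 9.49 on vehicle 2, 7.62 on combination 1 and 9.42 on combination 2. All 5 measured progenitor markers were lower in the combination, with a median of -0.18 and sums of 12.31 and 12.72 with vehicle and 12.21 and 12.18 with the combination. Of 5 mast cell or basophil markers 4 were lower, with a median of -0.32 and sums of 15.18 and 15.66 against 14.95 and 15.20, while Gzmb was higher by 1.53. Monocyte or macrophage markers gave sums of 10.08 and 10.80 against 9.79 and 10.08, but 3 were lower and 3 higher. Csf1r and Adgre1 differed by -0.91 and -0.56, while C1qb and Ms4a7, both dim, differed by 1.09 and 0.70. C1qb was at 4.70 and 4.51 with vehicle, within the background range, and at 5.72 and 5.65 with the combination. Megakaryocyte markers gave sums of 12.31 and 12.84 against 12.63 and 13.16, and these did not move together either. Ppbp was at 4.95 and 4.33 with vehicle and 9.8 and 10.52 with the combination. Gp9 differed by -0.37, and Itga2b and Pf4 by 0.10 each. In limma 0 of the markers listed here passed the adjusted threshold.

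No respiratory chain gene passed the threshold. In limma, 0 of the 83 members had an adjusted p under 0.05 over all features, where 2 of 65956 (0.00303%) did. At an unadjusted p under 0.05, limma gave 2 members, 1 lower and 1 higher, or 2.41%, against 5.58% of all features (2.44% lower and 3.14% higher). The differences were small and mostly negative: 67 of 83 members (80.7%) were lower in the combination and 16 higher, with a median of -0.07 and a range from -0.45 to 0.50. Among all features 44.6% were lower, and among all named genes 46.8%, with a median of 0.01. Bright genes leaned the same way as the members, since 65.6% of the 3427 genes with a mean signal above 10 were lower, with a median of -0.06. The median SE of a member's difference was 0.15, larger than the median size of the difference, 0.09.

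**Figure D1:**
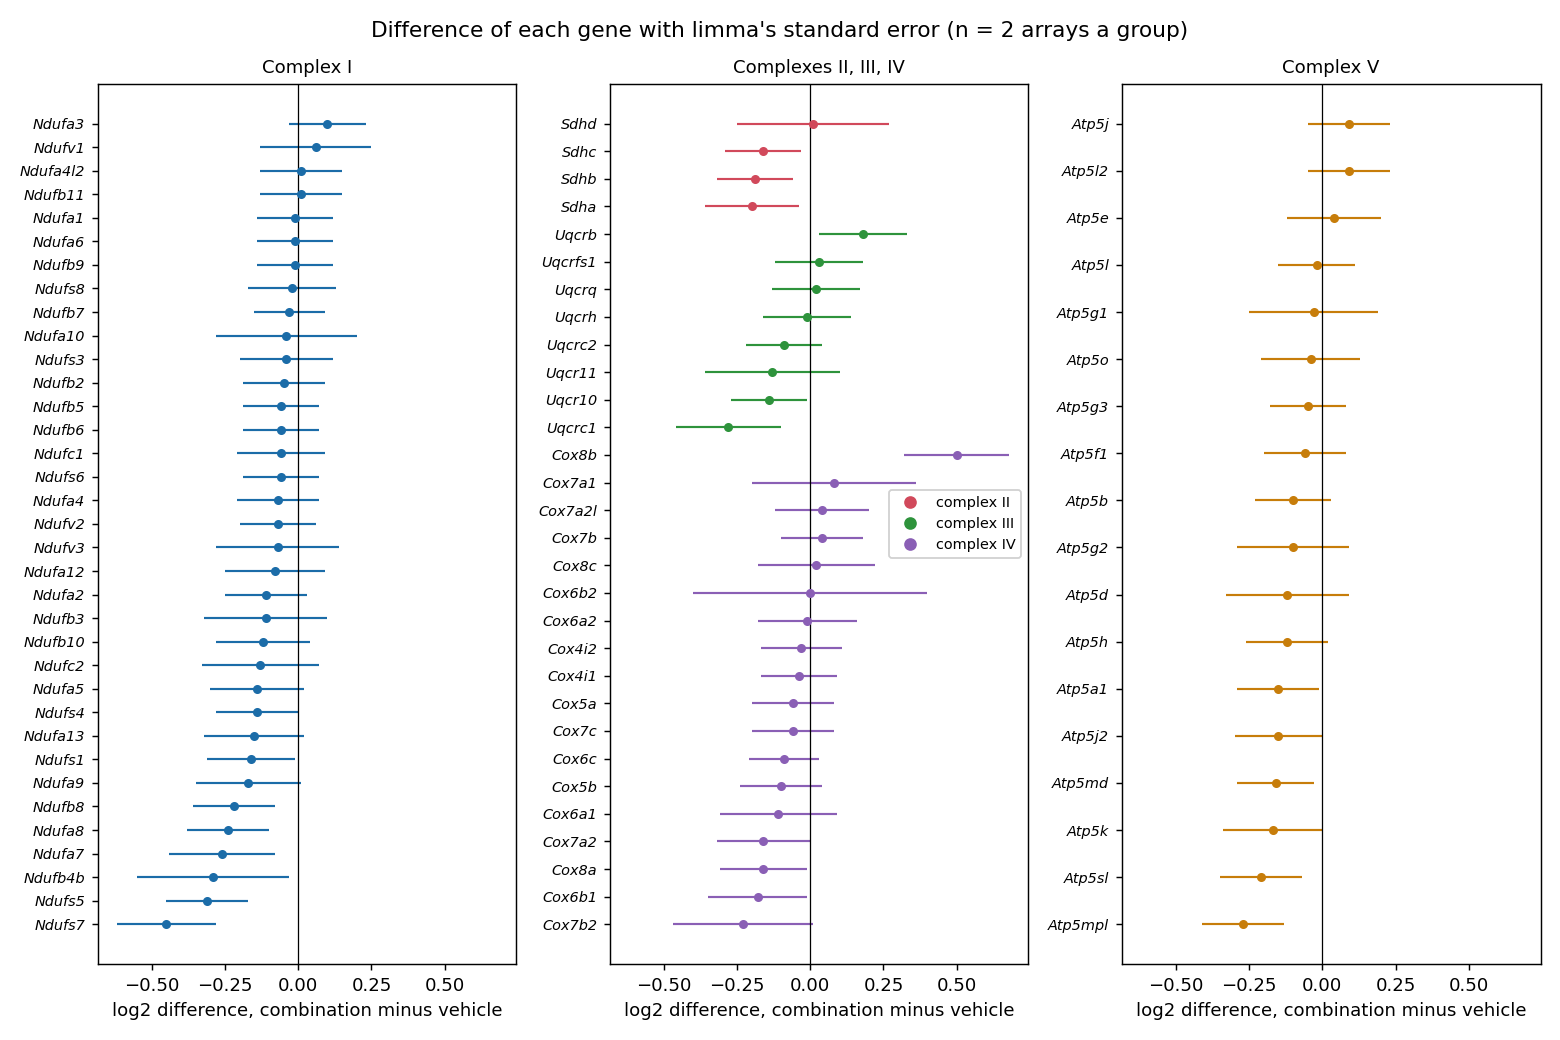
Log2 difference, combination minus vehicle (x axis), of each of the 83 genes (rows), with limma's standard error as bars and colours for complexes. Most points lie slightly left of 0 and 0 of them passed the adjusted threshold. Ndufs7 at -0.45 and Cox8b at 0.50 lie farthest out.

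Vehicle 1 stood above the other arrays for most members. Of the 83 members, 58 (69.9%) had their highest signal there, against 23.3% of all named genes and 42.0% of the genes above 10. The members' median deviation from their own mean was 0.13 on vehicle 1 and -0.02, -0.03 and -0.06 on vehicle 2, combination 1 and combination 2. Vehicle 2 lay below vehicle 1 for 65 of 83 members, by a median of -0.150, and it did so for 45.2% of all features, 46.6% of all named genes and 62.5% of the genes above 10. That gap between the vehicle arrays was larger than the difference between the groups for 58 of the 83 members (69.9%), against 58.9% of all features, 58.7% of all named genes and 63.0% of the genes above 10.

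Read within each replicate number, the lean was seen in number 1. Combination 1 lay below vehicle 1 for 73 of 83 members (88.0%), with a median of -0.150. For all features, all named genes and genes above 10 that share was 43.0%, 45.2% and 62.9%. Combination 2 lay below vehicle 2 for 47 of 83 (56.6%), with a median of -0.044, where these shares were 49.3%, 50.3% and 60.2%. Both held for 41 members (49.4%), against 23.4% of all features, 25.9% of all named genes and 41.5% of genes above 10. For all named genes these medians were 0.026 and -0.002, and for genes above 10 they were -0.069 and -0.051. Combination 1 against vehicle 2, arrays of unlike number, gave a median of 0.003, with 40 of 83 members lower (48.2%). Combination 2 against vehicle 1 gave -0.176, with 65 lower (78.3%). Among genes above 10, 47.7% and 67.7% were lower in these comparisons, and among all named genes 47.7% and 46.8%. A member's difference in number 1 said little about that in number 2, with a correlation across the 83 genes of -0.02. The correlation was 0.28 across all features, 0.43 across all named genes and 0.60 across genes above 10. Group differences spanned only -0.45 to 0.50 over the members, against -3.69 to 5.99 over all named genes. The part of this narrower range in the correlation was not tested. The 83 genes share the same 4 arrays and are not independent replicates. Vehicle 1 also had the highest erythroid sum, though not the highest Alas2, and high neutrophil sums were common to vehicle 1 and combination 1. Neutrophil and megakaryocyte sums were higher in the combination within each number. Progenitor, mast cell or basophil, monocyte or macrophage and erythroid sums were lower within each number, but not every marker was. Kit and Flt3 were higher by 0.34 and 0.09 in number 1, and Gzmb by 1.61 and 1.46 in numbers 1 and 2. The part of these markers in the members' levels was not tested, and in these bulk samples fewer cells of a type and less RNA per cell cannot be told apart.

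**Figure D2:**
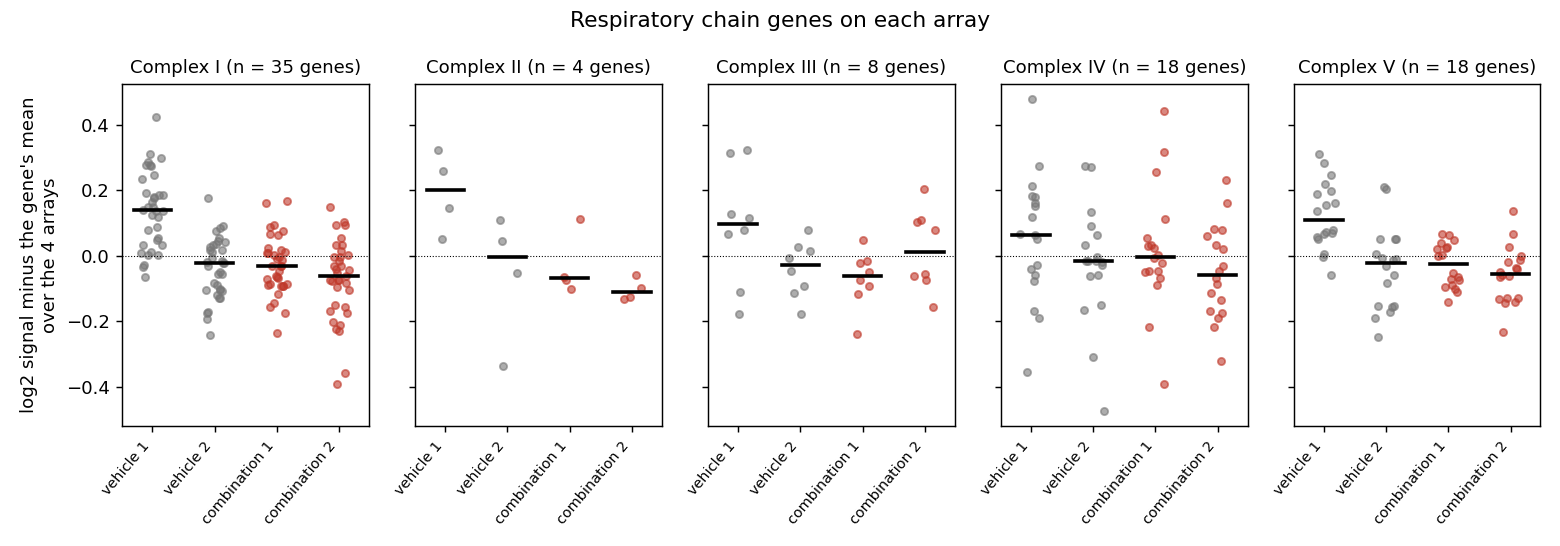
Log2 signal of each gene minus its own mean over the 4 arrays (y axis), by array (x axis) and complex (panels). Grey points are vehicle arrays, red points are combination arrays and black lines are medians. Vehicle 1 stands above the other 3 arrays in each complex, with medians of 0.14, 0.20, 0.10, 0.06 and 0.11 for complexes I to V.

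**Figure D3:**
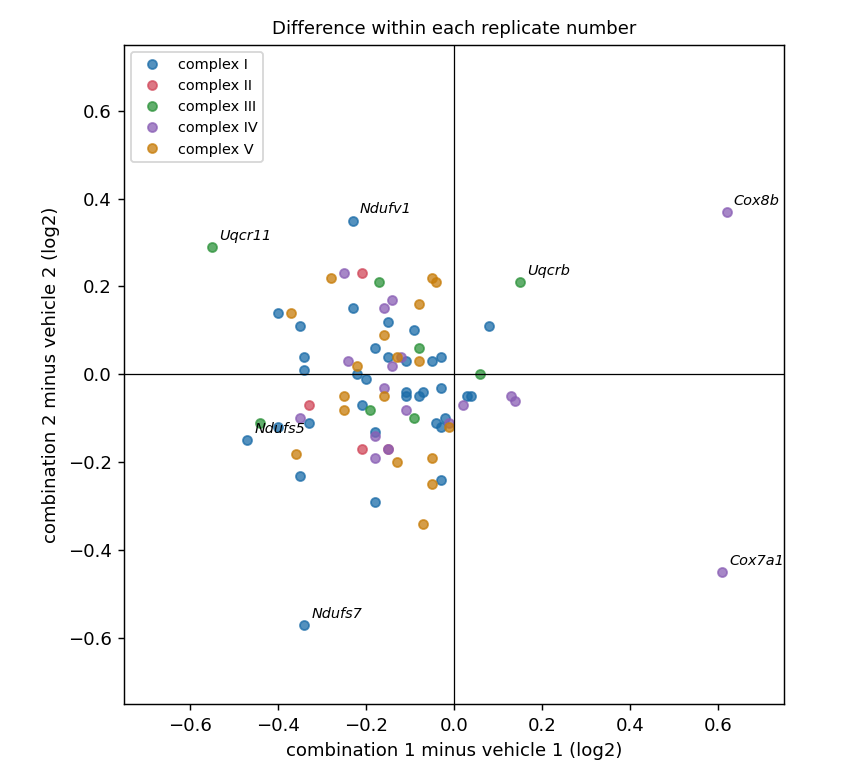
Combination 1 minus vehicle 1 (x axis) against combination 2 minus vehicle 2 (y axis), log2, with 1 point per gene coloured by complex. Most points lie left of 0 on the x axis and are spread on both sides of 0 on the y axis.

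Leaving out vehicle 1 left 48 of 83 members lower (57.8%) with a median of -0.02, against 47.9% of all named genes and 53.3% of those above 10. Without vehicle 2, 69 were lower (83.1%) with a median of -0.16, against 44.9% and 67.7%. Centring each array on its median lowers the differences of all genes alike. It gave a median of -0.13 and 76 of 83 members lower (91.6%), against 60.0% of all named genes and 76.0% of those above 10. A second quantile normalization gave a median of -0.07 and 63 of 83 members lower (75.9%), against 53.8% and 61.8%.

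In 22 of the 83 members (26.5%) both combination arrays lay below both vehicle arrays, and in 1 both lay above. The same held for 13.9% and 20.4% of all features, for 15.4% and 19.7% of all named genes, and for 22.8% and 9.16% of those above 10. The members' share below vehicle was near that of bright genes, though only 51 of the 83 members had a mean signal above 10. Among the complexes, 3 of 4 members did so in complex II, 9 of 35 in complex I, 3 of 8 in complex III, 1 of 18 in complex IV and 6 of 18 in complex V.

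Complex I had 31 of 35 members lower, with a median of -0.07 (-0.150 in number 1 and -0.040 in number 2). Ndufs7, a core subunit that holds the iron-sulfur cluster next to the ubiquinone site, was at 8.45 and 8.35 with vehicle and at 8.11 and 7.78 with the combination. The groups did not overlap, and both numbers were lower. The difference was -0.45 (SE 0.17, 1.37-fold lower), with a limma p of 0.047 that became 0.89 after adjustment over all features.

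The other measured core subunits, the catalytic part conserved from bacteria, differed less. Ndufs1, the large iron-sulfur subunit, was at 8.91 and 8.71 with vehicle and 8.72 and 8.58 with the combination, and its groups overlapped. Ndufv1, which binds NADH and FMN, was at 11.44 and 11.11 against 11.21 and 11.45. It was lower by 0.23 in number 1 and higher by 0.35 in number 2, so its mean difference of 0.06 joins opposite directions. Ndufv2, an iron-sulfur partner of Ndufv1, was at 10.94 and 10.95 against 10.91 and 10.83. The groups did not overlap, yet the difference of -0.07 was smaller than its SE of 0.13. Ndufs3 and Ndufs8, further core subunits, differed by -0.04 and -0.02, with a lower value in number 1 and a higher value in number 2 for both.

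Among accessory subunits, which surround the core, Ndufs5 was at 7.15 and 6.99 with vehicle and 6.68 and 6.84 with the combination, without overlap (difference -0.31, SE 0.14, limma adjusted p = 0.92). Ndufa8 was at 11.61 and 11.55 against 11.43 and 11.25, a difference of -0.24 (SE 0.14). Ndufb8 of the membrane arm was at 9.33 and 9.18 against 9.0 and 9.07, a difference of -0.22 (SE 0.14). In all 3 genes the combination arrays lay below the vehicle arrays. Ndufa3, another accessory subunit, had the highest difference of the complex, 0.10 (SE 0.13), with 9.43 and 9.31 against 9.51 and 9.42. Ndufa4 carries a complex I symbol but is known as a subunit of complex IV. It was at 14.49 and 14.31 against 14.39 and 14.27. Its paralog Ndufa4l2, known as a hypoxia-induced gene, lay at 2.91 to 3.09, within the background range on every array. The remaining complex I genes differed by -0.29 to 0.01.

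Complex II had the lowest median, -0.18, over only 4 genes. The flavoprotein Sdha, which oxidises succinate, was at 10.30 and 9.99 with vehicle and 9.97 and 9.91 with the combination. The iron-sulfur subunit Sdhb was at 11.27 and 11.17 against 11.06 and 11.00. The membrane anchor Sdhc was at 7.61 and 7.67 against 7.46 and 7.50. These 3 genes were lower in both numbers and did not overlap between groups, with differences of -0.20, -0.19 and -0.16 (SE 0.16, 0.13 and 0.13) and a limma adjusted p of 0.95 for each. The other anchor, Sdhd, was at 9.35 and 8.69 against 9.14 and 8.93, with a difference of 0.01. Its combination values lay between the vehicle values. The complex's median was -0.211 in number 1 and -0.123 in number 2, and -0.09 without vehicle 1. Whether complex II differs from the other complexes was not tested.

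In complex III, 5 of 8 members were lower and the median was -0.05. Its direction turned without vehicle 1, to 0.02. Uqcrc1, a core protein of the complex, was at 13.26 and 12.89 with vehicle and 12.82 and 12.78 with the combination, a difference of -0.28 (SE 0.18, limma adjusted p = 0.94). The groups did not overlap, but the vehicle values were farther apart than vehicle 2 and either combination value. Uqcrc2, its partner, was at 12.64 and 12.60 against 12.55 and 12.50, also without overlap (difference -0.09, SE 0.13). The small subunit Uqcr10 was at 6.87 and 6.77 against 6.68 and 6.70. Uqcr11, another small subunit, was at 10.84 and 10.35 against 10.29 and 10.63, lower by 0.55 in number 1 and higher by 0.29 in number 2. Uqcrb, which lies near the ubiquinone site, was the highest, at 13.02 and 13.19 against 13.18 and 13.40. Its groups overlapped, with a difference of 0.18 (SE 0.15). The Rieske iron-sulfur protein Uqcrfs1 was at 8.40 and 8.59 against 8.46 and 8.59, a difference of 0.03. Uqcrh and Uqcrq differed by -0.01 and 0.02. The median over the complex was -0.129 in number 1 and 0.030 in number 2.

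In complex IV the commonly used isoforms and the isoforms known from other tissues were read apart. Of 11 members without such a tissue link, 9 were lower, with a median of -0.09. Cox4i1, the common form of the largest nuclear-encoded subunit, was at 12.67 and 12.60 with vehicle and 12.55 and 12.65 with the combination. Cox5a and Cox5b, peripheral subunits, were at 15.23 and 15.05 against 15.09 and 15.08, and at 15.14 and 14.93 against 14.98 and 14.90. These 3 pairs of groups overlapped. Cox6c, the only complex IV member with both combination arrays below both vehicle arrays, was at 8.47 and 8.44 against 8.36 and 8.36, and Cox7c differed by -0.06. Cox6b1, on the cytochrome c side, was at 13.47 and 13.23 against 13.29 and 13.04 and was lower in both numbers, by 0.18 and 0.19, while vehicle 2 still lay below combination 1. The same pattern was seen for Cox7a2, at 16.44 and 16.24 against 16.29 and 16.07, and for Cox8a, at 13.74 and 13.54 against 13.56 and 13.39. In these 3 genes number 2 was below number 1 in both groups. Cox6a1 was at 13.82 and 13.38 against 13.57 and 13.41. Cox7b was at 12.41 and 12.42 against 12.55 and 12.37, and Cox7a2l, known as a supercomplex factor and not a complex IV isoform, was at 9.53 and 9.83 against 9.65 and 9.78. Both of these were higher in number 1 and lower in number 2.

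Of 7 isoforms known from muscle, lung or testis, 5 lay within the background range on every array: Cox4i2, Cox6a2, Cox7b2, Cox8b and Cox8c. Cox8b, the muscle form of subunit VIII, had the highest difference of all members, 0.50 (SE 0.18), with a limma p of 0.045 and an adjusted p of 0.89. It was at 2.98 and 2.86 with vehicle and 3.61 and 3.23 with the combination, near the mean of the background probe sets, so this is a difference between dim signals. Cox7b2 was at 4.61 and 4.92 against 4.26 and 4.81, a difference of -0.23. Cox4i2, Cox6a2 and Cox8c differed by -0.03, -0.01 and 0.02. The muscle creatine kinase gene Ckm, read as a check for muscle RNA, lay at 4.67 to 4.71 and the sperm protamine gene Prm1 at 4.51 to 4.81, also within that range. The 2 other isoforms were above it. Cox7a1, the muscle form of subunit VIIa, was at 6.65 and 7.28 against 7.26 and 6.83, higher by 0.61 in number 1 and lower by 0.45 in number 2. Cox6b2, the testis form of subunit VIb, was at 10.93 and 9.98 against 10.77 and 10.13. Number 1 was above number 2 in both groups there, with a group difference of 0.00 (SE 0.40).

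In complex V, 15 of 18 members were lower with a median of -0.10, and all 18 were lower in number 1 but 9 of 18 in number 2. The catalytic head is built from alpha and beta subunits. Atp5a1 (alpha) was at 13.87 and 13.70 with vehicle and 13.62 and 13.65 with the combination, a difference of -0.15 (SE 0.14). Atp5b (beta) was at 13.53 and 13.53 against 13.38 and 13.48, a difference of -0.10 (SE 0.13). Neither pair of groups overlapped, and both differences were about the size of their SE. The 3 genes Atp5g1, Atp5g2 and Atp5g3 encode the same mature c subunit of the membrane ring. They were at 9.30 and 8.77 against 9.02 and 8.98, at 12.03 and 11.63 against 11.82 and 11.65, and at 11.48 and 11.41 against 11.35 and 11.45. All 3 were lower in number 1 and higher in number 2, with group differences of -0.03, -0.10 and -0.05. The brightest probe set of Atp5g2 was numbered to chromosome 7 by its identifier, while RefSeq places the gene on chromosome 15. The probe set on chromosome 15 was at 11.24 and 10.84 against 10.90 and 10.77, lower in both numbers. The Atp5l probe set used likewise lay on chromosome 5, away from its gene on chromosome 9, so these values may include near-identical copies.

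Atp5mpl, a small membrane subunit, had the lowest difference of complex V. It was at 15.84 and 15.67 with vehicle and 15.48 and 15.49 with the combination, a difference of -0.27 (SE 0.14, limma adjusted p = 0.93). Atp5md, another small membrane subunit, was at 17.45 and 17.30 against 17.20 and 17.23, a difference of -0.16 (SE 0.13). In both genes the combination arrays lay together below the vehicle arrays. Atp5sl, which RefSeq calls Dmac2 and which is known as an assembly factor of complex I, was at 6.82 and 7.02 against 6.75 and 6.67 (difference -0.21, SE 0.14). Atp5l2 and Atp5j, a coupling subunit, had the highest differences, 0.09 each. Atp5l2, at 11.80 and 11.58 against 11.76 and 11.80, was the only member without a match in the RefSeq gene table. The other 8 members of the complex, Atp5d, Atp5e, Atp5f1, Atp5h, Atp5j2, Atp5k, Atp5l and Atp5o, differed by -0.17 to 0.04.

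Subunits outside the symbol rule gave no call either. Of 8 measured genes, 4 were lower and 4 higher, 0 had a limma p under 0.05, and the median was -0.07. Among those encoded by mitochondrial DNA, mt-Co1 was at 19.66 and 19.66 with vehicle and 19.73 and 19.62 with the combination, mt-Co2 at 12.84 and 12.74 against 13.05 and 12.60, and mt-Nd6 at 10.71 and 10.53 against 10.83 and 10.90 (difference 0.24, SE 0.14). The first 2 overlapped between groups. Mitochondrial probe sets that span several genes stayed unnamed. Cyc1, the cytochrome subunit of complex III, was at 13.49 and 12.98 against 13.09 and 12.93, with vehicle 1 again highest. Ndufab1, the acyl carrier protein of complex I, differed by -0.21 (SE 0.16).

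Assembly factors build the complexes without staying in them. Of 43 measured, 35 were lower with a median of -0.16 (-0.16 in number 1 and -0.12 in number 2). Of all features 44.6% were lower, of all named genes 46.8% and of those above 10 65.6%. Without overlap, 13 (30.2%) lay below vehicle and 2 above. For all features, all named genes and those above 10, the shares below were 13.9%, 15.4% and 22.8%. The shares above were 20.4%, 19.7% and 9.16%. Most of these factors had a mean signal under 10. In limma 0 passed the adjusted threshold and 2 (4.65%) had a p under 0.05, against 5.58% of all features. Ndufaf3, a complex I factor, was at 6.45 and 6.45 against 6.02 and 5.99 (difference -0.44, SE 0.12, limma adjusted p = 0.80). Acad9, another complex I factor, was at 8.54 and 8.50 against 8.06 and 8.15 (difference -0.41, SE 0.13, limma adjusted p = 0.83). Here the combination arrays lay apart from both vehicle arrays, which lay close to each other.

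Regulators of mitochondrial transcription gave 9 of 12 lower, 0 past the adjusted limma threshold and a median of -0.07. The coactivator Pprc1 was at 8.79 and 8.57 with vehicle and 8.20 and 8.23 with the combination, and its relative Ppargc1b was at 6.28 and 6.82 against 5.93 and 5.70. Both lay below vehicle without overlap, with differences of -0.46 (SE 0.14) and -0.73 (SE 0.23). The limma adjusted p was 0.83 for each. These were the 2 genes of the list (16.7%) with an unadjusted limma p under 0.05, against 5.58% of all features. The combination values of Ppargc1b lay just above the background range, which ends at 5.55. Ppargc1a, the best known of these coactivators, lay at 3.59 to 3.82, within the background range. Nrf1 was at 8.01 and 7.72 against 7.75 and 7.72, and the mitochondrial DNA packaging factor Tfam at 9.64 and 9.60 against 9.47 and 9.64. Both overlapped between groups.

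Of 13 measured citric acid cycle enzymes, 9 were lower, 0 passed in limma, and the median was -0.15 (-0.18 and -0.05 in numbers 1 and 2). Fh1, fumarase, was at 9.84 and 10.27 against 9.61 and 9.59, and Idh3a, a subunit of isocitrate dehydrogenase, at 11.95 and 11.38 against 11.28 and 11.05, both without overlap. Without overlap, 6 enzymes (46.2%) lay below vehicle, against 13.9% of all features, 15.4% of all named genes and 22.8% of those above 10. The 2 above were Dld and Suclg2, where these shares were 20.4%, 19.7% and 9.16%. Dld, a subunit shared by several dehydrogenase complexes, was at 11.05 and 11.11 against 11.23 and 11.49. Citrate synthase (Cs) was at 12.55 and 12.42 against 12.51 and 12.45, with a difference of 0.00. Among 7 measured genes of the ATP synthase inhibitor and the carriers and channels, 5 were lower and 0 passed, with a median of -0.04. The phosphate carrier Slc25a3 differed by 0.17 (SE 0.13) and the adenine nucleotide carrier Slc25a4 by 0.21 (SE 0.22).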

How the data were processed

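The authors deposited log2 signals; the submitters' processing notes name RMA and Transcriptome Analysis Console. Neither versions nor a build are stated in what was used here. RMA brings arrays to a common distribution and compresses dim signals, so small shifts of bright genes depend on the scaling. Of 72688 rows, 6732 control rows recognised by their identifiers were left out, which left 65956 features, 30604 with 1 symbol in the platform annotation. Levels are not compared between probe sets.

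Limma 3.58.1 (lmFit, eBayes, R 4.3.3) was fitted to all features on group alone, two-sided, with Benjamini-Hochberg adjustment over all features and a threshold of 0.05. The fit had 2 residual degrees of freedom. Precision is limited by the number of arrays, 2 a group. The labels do not say that a replicate number marks a shared source, so the block is an alternative.

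Promoter windows were searched on both strands for the named motifs; overlapping matches of 1 motif at 1 place counted once.

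The members, lists and tests were chosen with earlier results of these data known. Named members were, per complex, the 4 with the smallest p and both extremes, all at an unadjusted p under 0.05, a fixed set of core subunits and isoforms, and the 2 of each other list with the smallest p; further genes were named after their values were seen. The background of genes above a signal of 10 was chosen after seeing the data.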

Additional observations from a re-analysis of the deposited data

How the results depend on the processing

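The 0 calls among the members were 0 under each alternative run. The count of features past limma's threshold was 2, and it rose to 19 with a replicate block, stayed 2 after centring and with a robust prior, and was 0 with an intensity trend, with either filter on dim features, after a second quantile normalization, with control rows kept and without any 1 array. The 2 members at an unadjusted p under 0.05 became 1 after the second quantile normalization, after centring and with a trend, 0 with either filter and with control rows kept, and 0 to 1 without 1 array. Without 1 array, 48 to 69 members were lower, and the median ranged from -0.16 to -0.02 over all members, -0.18 to -0.01 for complex I, -0.28 to -0.09 for II, -0.12 to 0.02 for III, -0.10 to -0.04 for IV and -0.12 to -0.02 for V. The value of 0.02 for complex III came without vehicle 1; the cause was not tested. Of 46 named members, 15 changed sign without vehicle 1. With the replicate number as a block, 2 members were at an unadjusted p under 0.05 and the medians did not move, by construction. Samples of like number deviated together, with r = 0.33 over all features, 0.47 over all named genes and 0.67 over genes above 10. Over the 83 members it was 0.35. Still, 2 pairs cannot show that the numbers pair the samples. Taking the mean of a gene's probe sets, Ndufa4 with complex IV, leaving out factors and paralogs, or the probe set on the gene's own chromosome (added after seeing the data) left each complex median between -0.18 and -0.05. Signals within the background range limit the reading of 6 members.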
